A study of Mus musculus with 15 samples.

Results

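The comparison described here asks whether the difference between 2 oestrogens in the mouse uterus changed with time. It was read from 12 of the 15 arrays of the series, those of uteri given E2 or E3 and collected at 2 h or 24 h. For every gene the E2 minus E3 difference at 2 h was subtracted from the E2 minus E3 difference at 24 h. A positive value of this interaction means that E2 stood higher relative to E3 at 24 h than at 2 h, and a negative value the opposite.

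E2 and E3 are read as estradiol and estriol, and estriol carries an additional hydroxyl group on its D ring. All mice were ovariectomized CD-1 animals, an outbred strain, so the ovary supplied no oestrogen of its own. The 4 groups were uteri at 24 h after E2, at 24 h after E3, at 2 h after E2 and at 2 h after E3, with 3 arrays in each, after an injection of 250 ng of the hormone in 100 µl of saline. The 3 remaining arrays, from mice given 100 µl of saline alone with no collection time stated, serve only as a level beside the others. Ages were not given in the sources used here, nor whether the 3 samples of a group came from separate animals, so the p-values speak only of how these samples vary, and that variation could be technical.

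A single oestrogen dose is known to act on the uterus in an early phase, within hours, when immediate early transcription factors and fluid uptake respond, and in a late phase, about a day later, when luminal epithelial cells replicate their DNA and divide. Both phases depend on oestrogen receptor alpha, the product of Esr1. In the rat, estriol is known as a short-acting oestrogen that stays in the nucleus for a shorter time than estradiol, and a single injection gives the early phase more fully than late growth. Cells that divide need new membranes, and sterol synthesis through the mevalonate pathway supplies the cholesterol for them.

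Levels below are log2 signals of oligonucleotide probes on a 1-colour Agilent array, counted from the 75th percentile of that array, so 0 is a fairly bright probe. Raw signals at that percentile ran between 1052.8 and 1854.1 over the 12 arrays. Markers of the labelled tissue were present on all 12 arrays, with mean levels of the smooth muscle list between 4.72 and 5.9, of the stromal list between 2.22 and 3.33, and of the uterine epithelial list between 1.04 and 2.28. The E3 24 h arrays were less alike than those of the other groups, with correlations of 0.961 to 0.973 over all genes, against 0.987 to 0.992 elsewhere among the 12. Each of the 3 stood apart in its own genes. Array 1 had the highest mitotic gene levels of its group, array 2 the highest interferon-response, early oestrogen-response and secreted epithelial gene levels, and array 3 held pancreatic acinar transcripts. The acinar list of 7 measured genes averaged 8.41 on that array, between -5.63 and -0.3 on the other 5 arrays of 24 h, and between -6.15 and -5.16 at 2 h. Its summed signal reached 2490 times the 75th percentile in the E3 24 h group, against at most 6.28 in the E2 24 h group. Results are therefore given with and without E3 24 h arrays where these move them.

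Promoters of 5 genes are shown first because they belong to the 2 groups of genes on which the results turn, DNA replication and sterol synthesis. The sterol genes are the called ones with the smallest interaction p that had a promoter sequence. The 2 replication genes were picked in the same way, but only among those whose window holds an E2F-type word as given below. Finding that word in them was thus fixed by the choice. Mcm5 encodes a subunit of the replicative helicase and Cdc6 loads that helicase at origins. Hmgcs1, Mvk and Mvd encode enzymes of the mevalonate pathway. Each sequence holds the 250 bases before the annotated start, 5′ to 3′ on the strand of the gene, from RefSeq on build GRCm38.p6. They lie at chr8:75109259-75109508 on the plus strand for Mcm5, chr11:98907901-98908150 plus for Cdc6, chr13:119690101-119690350 plus for Hmgcs1, chr5:114444019-114444268 plus for Mvk and chr8:122443423-122443672 minus for Mvd. Capitals mark words searched for on both strands: the E2F-type words TTTGGCGC, TTTCGCGC, TTTCCCGC and TTTGCCGC, the word CCAAT, and TCACCCCAC, a word like the sterol regulatory element.
Mcm5: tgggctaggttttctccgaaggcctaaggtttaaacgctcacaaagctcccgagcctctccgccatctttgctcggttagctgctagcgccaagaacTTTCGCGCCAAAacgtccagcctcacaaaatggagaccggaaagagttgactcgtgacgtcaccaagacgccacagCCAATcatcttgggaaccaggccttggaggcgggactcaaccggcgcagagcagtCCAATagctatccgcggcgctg
Cdc6: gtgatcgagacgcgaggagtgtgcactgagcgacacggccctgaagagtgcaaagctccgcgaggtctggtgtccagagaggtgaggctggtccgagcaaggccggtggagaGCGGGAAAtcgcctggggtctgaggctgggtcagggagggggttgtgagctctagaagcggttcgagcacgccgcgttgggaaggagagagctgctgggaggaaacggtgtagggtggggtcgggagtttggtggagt
Hmgcs1: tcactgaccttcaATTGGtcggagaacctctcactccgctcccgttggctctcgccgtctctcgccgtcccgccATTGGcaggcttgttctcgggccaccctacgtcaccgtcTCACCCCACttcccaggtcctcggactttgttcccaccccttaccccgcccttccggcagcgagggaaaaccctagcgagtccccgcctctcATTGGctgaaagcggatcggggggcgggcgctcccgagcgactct
Mvk: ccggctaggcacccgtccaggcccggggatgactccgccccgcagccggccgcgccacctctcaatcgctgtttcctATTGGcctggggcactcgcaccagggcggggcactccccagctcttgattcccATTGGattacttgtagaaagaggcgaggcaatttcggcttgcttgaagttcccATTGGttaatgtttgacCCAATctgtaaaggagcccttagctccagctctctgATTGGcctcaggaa
Mvd: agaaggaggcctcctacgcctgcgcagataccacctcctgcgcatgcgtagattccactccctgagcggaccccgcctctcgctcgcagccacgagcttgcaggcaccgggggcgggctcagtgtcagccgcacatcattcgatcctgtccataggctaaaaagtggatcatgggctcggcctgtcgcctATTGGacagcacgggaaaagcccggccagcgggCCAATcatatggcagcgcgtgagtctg

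In the Mcm5 window 2 E2F-type words overlap, TTTCGCGC at 153 to 146 bases before the start and GCGCCAAA, the other strand's form of TTTGGCGC, at 149 to 142 bases. Cdc6 has GCGGGAAA, the reverse form of TTTCCCGC, at 138 to 131 bases. Hmgcs1 has the word TCACCCCAC at 137 to 129 bases and 3 CCAAT words, Mvk has 5 CCAAT words and Mvd has 2. An E2F-type word was present in 29.4% of the promoters of the DNA replication list (10 of 34 with a promoter sequence), in 8.22% of those of genes with a called positive interaction (25 of 304), in 2.65% of those with a called negative one (4 of 151), in 3.43% of those of genes tested (425 of 12407), and in 2.16% of all 27025 promoters. The E2F-type share was 12.1% in the ribosome assembly list, 6.25% in the mitosis list, 4.35% in the endoplasmic reticulum list and 0 in the sterol list. CCAAT was present in all 16 promoters of the sterol list, in 87.5% of the mitosis list, 87% of the endoplasmic reticulum list and 61.8% of the DNA replication list. In the ribosome assembly list it was in 30.3%, below the 39.6% of genes tested. It was in 52.6% of positive and 35.8% of negative genes, and in 37.5% of all promoters. The word TCACCCCAC was in 1 of the 16 sterol promoters, that of Hmgcs1, in 0.987% of positive genes, in 0.613% of genes tested and in 0.555% of all promoters. The palindromic oestrogen response element, GGTCA and TGACC with 3 bases between them, was in 0.0242% of genes tested (3 of 12407) and in 0.0666% of all promoters. It was in none of the called genes' windows, which at so low a share decides nothing. All these counts are matches of letters in short windows and say nothing about binding in these uteri.

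Of 20035 genes tested in 1 limma fit of the 12 arrays, 696 had an interaction at an adjusted p under 0.05, which is 3.47% of them. The interaction was positive in 423 (2.11%) and negative in 273 (1.36%), and 424 of the 696 reached 2-fold. An unadjusted p under 0.05 was reached by 4301 of the 20035, where chance gives 1001.8. Interaction counts of list members at an unadjusted p, given below, are to be read beside that number for all genes. Scaling each array to its median instead of its 75th percentile moved the share of positive calls to 77.2%, against 60.8%, and moved the median of all genes to 0.114, against -0.02. The median gene had a 95% interval of 0.62 log2 units to each side, and smaller interactions were not resolved at this number of arrays.

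The 2 terms of the interaction were unequal in size. At 24 h, 2490 genes differed between E2 and E3 (12.4% of those tested), with 1469 higher with E2 (7.33%) and 1021 lower (5.1%). Scaling to the array median put 68.8% of these calls on the higher side, against 59% with the 75th percentile. At 2 h, 0 genes differed at an adjusted p under 0.05 with limma, and the smallest adjusted p was 0.754. An unadjusted p under 0.05 was reached by 632, where chance gives 1001.8. That test shares 1 spread over the 4 groups, with median SDs of 0.273 at E3 24 h, 0.164 at E2 2 h and 0.182 at E3 2 h. The unadjusted count was 2097 with array weights, 1171 with weights per group and 1092 with the slide as a fixed block, and under 1001.8 in every other fit. It therefore does not show that E2 and E3 differed less than chance at 2 h. For 80.2% of genes the 95% interval of the 2 h difference lay within 2-fold in either direction, which bounds the difference for those genes and leaves it wider for the rest. Arrays of E2 and E3 did not overlap at 24 h in 28.8% of genes (15.1% with E2 above and 13.7% with E2 below) and at 2 h in 12.8% (5.89% with E2 above and 6.89% with E2 below).

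In genes with a positive interaction the median E2 minus E3 difference was 0.87 at 24 h and -0.11 at 2 h, and in genes with a negative interaction it was -1.11 at 24 h and 0.22 at 2 h. The 24 h difference is itself a term of the interaction, so these values describe how the calls came about and are not a second test. In 423 of 423 positive and 260 of 273 negative genes the 24 h difference was the larger of the 2 in size. All 423 positive genes had E2 24 h arrays that did not overlap the E3 24 h arrays, as did 272 of the 273 negative genes, where 28.8% of all genes tested did. Among the positive genes 204 had a higher mean at 24 h than at 2 h after E2 and a lower one after E3, 200 were higher at 24 h with both and 19 lower with both. Among the negative genes 167 were lower at 24 h than at 2 h after E2 and higher after E3.

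**Figure D1:**
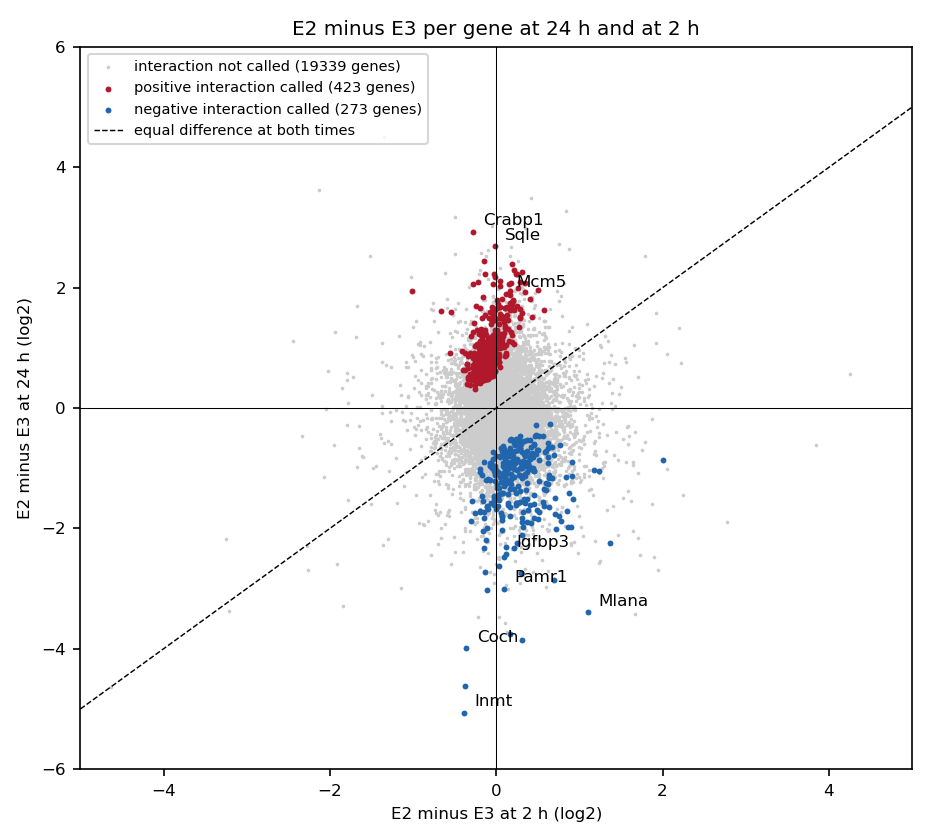
E2 minus E3 for each gene at 24 h (vertical, log2) against the same difference at 2 h (horizontal, log2). The 423 positive (red) and 273 negative (blue) called interactions lie mainly above and below the horizontal axis and near the vertical one, so their 24 h difference is the larger in 423 and 260 genes.

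The number of calls depended on the arrays and on blocks read from the file headers. It was 867, 1591 and 294 without E3 24 h arrays 1, 2 and 3, and 189, 199 and 648 without E2 24 h arrays 1, 2 and 3. Leaving out 1 array of 2 h gave 165 (E2 array 1), 235 (E2 array 2), 176 (E2 array 3), 369 (E3 array 1), 221 (E3 array 2) and 167 (E3 array 3). With the slide as a random block 312 genes were called, with the scan day as a fixed block 4, and with the slide as a fixed block 0 (2177 at an unadjusted p under 0.05). Arrays of E2 and E3 of 1 time never shared a slide, so no value within a slide exists, and in the fixed slide block only array 2 of E3 24 h carries information on that group. The 8 arrays of scan day 1, with 2 arrays in each group, gave 16 calls of their own, 5 positive and 11 negative. All 696 genes kept their sign in the scan day block, on scan day 1 alone and in the random slide block, and 675 did in the fixed slide block. Since these genes were called for their estimates on the same arrays, a kept sign is not independent support.

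**Figure D2:**
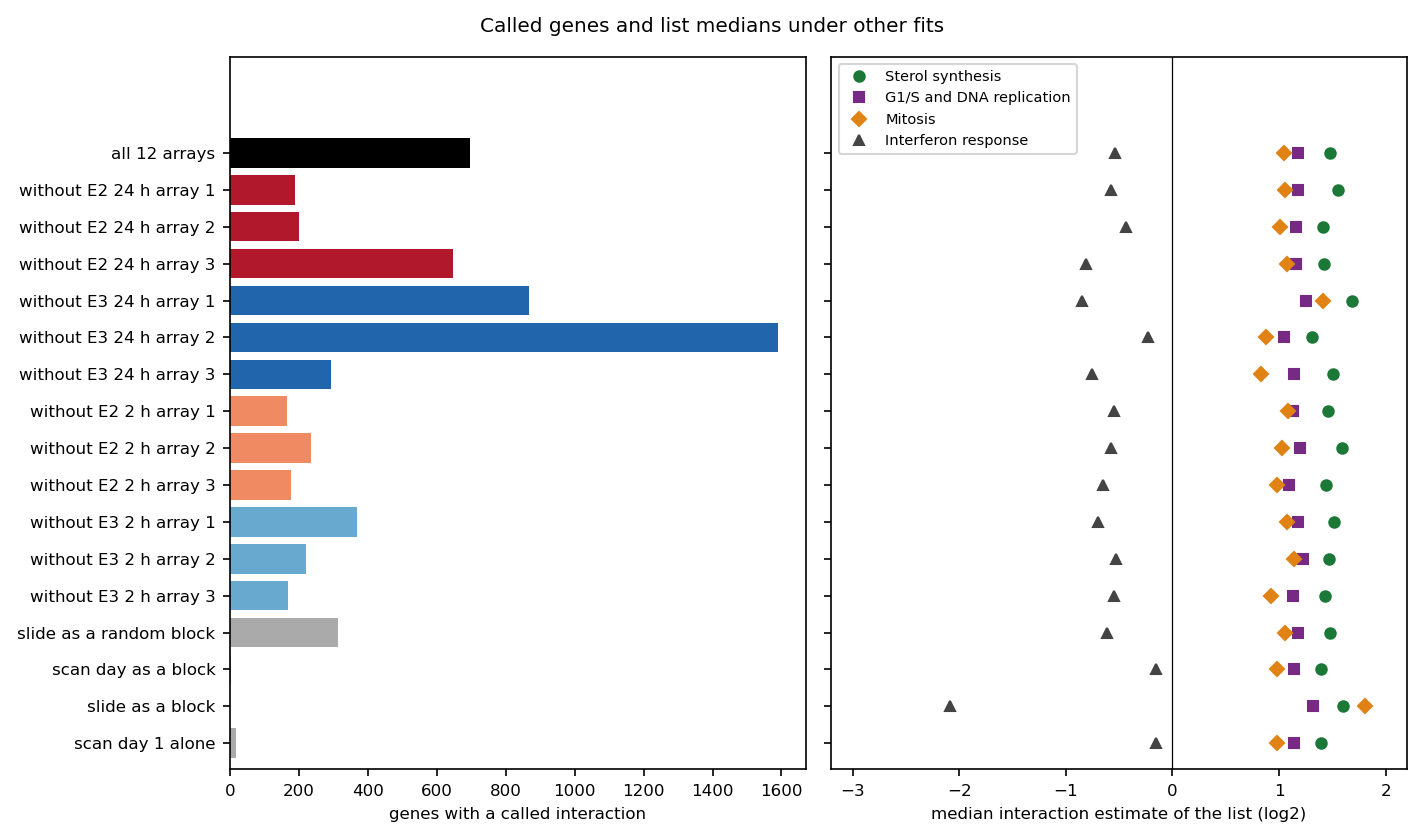
Left, the number of genes with a called interaction with all 12 arrays, without each array, and with slide or scan day in the fit. Right, the median interaction estimate (log2) of 4 gene lists in the same fits, with sterol synthesis between 1.31 and 1.68 and the interferon response between -2.09 and -0.15.

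Genes of sterol synthesis stood higher with E2 than with E3 at 24 h and had no called difference at 2 h. All 24 genes of the list passed the filter on dim probes and had a positive interaction estimate, 12 of them called (background 2.11%), and their median was 1.48 against -0.02 over all genes. At 24 h 21 of the 24 were called, each higher with E2. The median E2 minus E3 difference was 1.41 at 24 h and -0.1 at 2 h. Mean levels of the list per array were 1.74, 2.01 and 1.93 at E2 24 h, 0.7, -0.1 and 0.38 at E3 24 h, 0.35, 0.88 and 0.54 at E2 2 h, 0.66, 0.7 and 0.73 at E3 2 h, and -0.01 to 0.08 in vehicle uteri. At 2 h all 6 arrays lay above the vehicle arrays. At 24 h the E2 arrays lay above all others, and the E3 arrays ran from below the vehicle level up to the 2 h range.

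Sqle encodes squalene epoxidase, a rate-limiting enzyme of the pathway after the mevalonate steps, and its probe lies at chr15:59397289-59397348 of build mm7. Its levels were 2.44, 2.88 and 2.71 at E2 24 h, 0.66, -0.5 and -0.22 at E3 24 h, 1.01, 2.01 and 1.51 at E2 2 h, and 1.31, 1.77 and 1.52 at E3 2 h. The 24 h groups did not overlap and the 2 h groups did. Sqle was 6.47-fold higher with E2 at 24 h, differed by -0.02 at 2 h (95% interval -0.72 to 0.68), and had an interaction of 2.71 with an SE of 0.45 (limma adjusted p = 0.016). Relative to 2 h, Sqle rose by 1.16 with E2 and fell by 1.55 with E3 on the log2 scale (adjusted p = 0.011 and 0.0029).

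Hmgcs1 encodes a cytosolic synthase early in the mevalonate pathway. Its levels were 3.58, 3.96 and 3.79 at E2 24 h, 2.15, 1.76 and 1.89 at E3 24 h, 2.39, 3.29 and 2.83 at E2 2 h and 2.88, 3.06 and 3.06 at E3 2 h, and 2 to 2.07 in vehicle uteri. At 24 h E3 uteri were thus back near the vehicle level and E2 uteri far above it (interaction 2.01, SE 0.3, adjusted p = 0.011).

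Mvk and Mvd, the kinase and the decarboxylase of mevalonate, followed another course. Mvk had levels of 1.36, 1.56 and 1.22 at E2 24 h, -0.11, -0.5 and -0.08 at E3 24 h, -1.26, -1.21 and -1.56 at E2 2 h and -1.33, -1.41 and -1.16 at E3 2 h. It rose between 2 h and 24 h with both hormones, by 2.73 with E2 and by 1.07 with E3 (adjusted p = 2e-06 and 0.00044), and the interaction was 1.65 (SE 0.22, adjusted p = 0.0098). Mvd was similar, with an interaction of 1.5 (SE 0.21, adjusted p = 0.0098). The other named enzymes were Fdps at 2.26, Msmo1 at 2.33 and Idi1 at 2.59, all called, with adjusted p between 0.014 and 0.047. Second probes of Hmgcs1, Fdps and Idi1 gave estimates of the same sign, 1.94, 1.75 and 3.03, that were not called, and a further Hmgcs1 probe at 1.76 was called.

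The count of called sterol genes was 19, 16 and 8 without E3 24 h arrays 1, 2 and 3, and 7 to 9 without any 1 of the other 9 arrays. It was 8 with the slide as a random block and 0 with slide or scan day as a fixed block. The median estimate stayed between 1.31 and 1.68 in those fits.

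Genes of the entry into S phase and of DNA replication had the highest share of called interactions among the process lists. All 42 genes of the list were measured, 31 were called and each of these was positive, the median was 1.18, and 41 had a positive estimate. The exception was Prim2, a primase subunit, at -1.24 (SE 1.82, adjusted p = 0.74), which had 1 array far below its group at E2 24 h (-2.09, against 1.63 and 1.64) and 1 at E3 2 h (-5.22, against -0.38 and -0.26). At 24 h 39 of the 42 were called, each higher with E2, and 40 had E2 arrays all above the E3 arrays, where 15.1% of all genes did. Mean levels of the list were 1.26, 1.28 and 1.19 at E2 24 h, 0.13, -0.1 and -0.08 at E3 24 h, 0.42, 0.39 and 0.36 at E2 2 h, 0.24, 0.29 and 0.29 at E3 2 h, and 0.19, 0.27 and 0.44 in vehicle uteri. E2 24 h arrays lay above every other array, and E3 24 h arrays below every other array, vehicle included.

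Mcm5 had the smallest p-value of the list. Its levels, from a probe at chr8:73669372-73669432 of mm7, were 2.91, 2.93 and 2.93 at E2 24 h, 1.05, 1.04 and 0.99 at E3 24 h, 1.57, 1.65 and 1.56 at E2 2 h and 1.24, 1.53 and 1.66 at E3 2 h, and 1.23 to 1.8 in vehicle uteri. Each 24 h group was tight and the 2 were far apart, with E3 24 h below every other array. Mcm5 was 3.73-fold higher with E2 at 24 h, differed by 0.12 at 2 h (95% interval -0.13 to 0.38), and had an interaction of 1.78 (SE 0.16, adjusted p = 0.0037). It rose by 1.33 between 2 h and 24 h with E2 and fell by 0.45 with E3 (adjusted p = 1.7e-05 and 0.0096).

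Mcm3, of the same helicase, and Gins1, of the complex that activates it, had interactions of 1.43 and 1.5 (adjusted p = 0.0055 each). Cdc45, which joins both, had levels of -1.57, -1.85 and -1.81 at E2 24 h, -3.23, -3.6 and -3.78 at E3 24 h, -2.75, -2.7 and -2.82 at E2 2 h and -3.02, -2.72 and -2.55 at E3 2 h, and an interaction of 1.78 (SE 0.24, adjusted p = 0.0097). Cdc6 had an interaction of 1.95 (adjusted p = 0.0098) and E2f1, a transcription factor of the S phase programme, one of 1.59 (adjusted p = 0.011). Pcna, the sliding clamp of the polymerases, showed the other way in which an interaction arose. Pcna averaged 3.85 ± 0.07 at E2 24 h, 2.85 ± 0.14 at E3 24 h, 3.83 ± 0.05 at E2 2 h and 3.83 ± 0.05 at E3 2 h (SD, n = 3 each), and 3.17 ± 0.05 in vehicle uteri. With E2 its level at 24 h was that of 2 h, with a difference of 0.02 (95% interval -0.21 to 0.25), and with E3 it fell by 0.98 (adjusted p = 6.4e-05). Cdc6, E2f1, Pcna and Prim2 were chosen for naming after their values were seen.

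Of the genes with the largest positive interactions, Tk1 and Ccne2 belong here too. Tk1, thymidine kinase, had an interaction of 2.2 (adjusted p = 0.017) and Ccne2, a cyclin of the G1/S transition, one of 2.08 (adjusted p = 0.039). Uhrf1, which keeps DNA methylation at replication forks, had levels of 1.18, 0.83 and 1.29 at E2 24 h, -0.71, -1.14 and -1.55 at E3 24 h, -0.04 to -0.17 at E2 2 h and -0.22 to -0.47 at E3 2 h (interaction 1.99, SE 0.28, adjusted p = 0.011). Lrr1, part of a ubiquitin ligase that removes the helicase from DNA, had an interaction of 2.21 (SE 0.29, adjusted p = 0.0098). The histone H3 gene H3c1 had one of 2.34 (adjusted p = 0.031), at a level that was well above background on only 1 of the 3 E2 2 h arrays.

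The count of called genes of the list was 31, 32 and 19 without E3 24 h arrays 1, 2 and 3, 16 and 17 without E2 24 h arrays 1 and 2, 26 without E2 24 h array 3, and 16 to 21 without any 1 array of 2 h. It was 22 with the slide as a random block, 1 with the scan day as a block and 0 with the slide as a fixed block, and the median was 1.18, 1.14 and 1.32 in these 3 fits.

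Mitotic genes were higher with E2 at 24 h, while few had a called interaction. Of 40 genes for mitosis and chromosome segregation 39 were measured, and 28 were called at 24 h, each higher with E2 (background 7.33%), with a median difference of 1.23, against 0.12 at 2 h. All 39 interaction estimates were positive, with a median of 1.05, and 2 of 39 were called (background 2.11% positive), Pbk at 2.06 and Bub1 at 1.46 (adjusted p = 0.039 and 0.043). Mean levels were 0.66, 0.77 and 0.56 at E2 24 h, 0.22, -0.84 and -0.98 at E3 24 h, -1.14, -1.28 and -1.24 at E2 2 h, and -1.53, -1.46 and -1.03 at E3 2 h. Vehicle uteri had -1.39 to -0.93. E3 24 h array 1 stood about 1 log2 unit above the other 2 arrays of its group. All 3 stood above the 2 h arrays, array 3 only just (-0.98 against -1.03). Array 3 lay inside the vehicle range and array 2 just above it. The median change from 2 h to 24 h was 1.87 with E2 and 0.8 with E3, where array 1 was the highest of the E3 24 h arrays.

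Pbk, a mitotic kinase, had levels of 1.04, 0.84 and 0.8 at E2 24 h, -0.39, -1.86 and -1.4 at E3 24 h, -0.9, -0.87 and -0.9 at E2 2 h and -1.15, -1.14 and -0.54 at E3 2 h. Bub1, a kinase of the spindle checkpoint, had levels of -1.27, -0.88 and -1.25 at E2 24 h, -2.18, -2.97 and -3.14 at E3 24 h, -3.01, -2.96 and -3.06 at E2 2 h, and -3.33, -3.28 and -2.94 at E3 2 h. In both genes E3 24 h array 1 was the array of its group nearest to E2. Top2a, the topoisomerase that untangles chromosomes, had an estimate of 1.55 (adjusted p = 0.055), the mitotic kinase Aurkb one of 1.38 (adjusted p = 0.068), Ccnb1, the mitotic cyclin, one of 0.97 (adjusted p = 0.25), and Mki67, the proliferation marker, one of 0.86 (adjusted p = 0.23). In the fit without E3 24 h array 1, which called 867 of all 20035 genes, the list had 28 called interactions and a median of 1.41. It had 2 without E3 24 h array 2, 0 without E3 24 h array 3, and 0 without any 1 of the other 9 arrays or with slide, random or fixed, or scan day in the fit. The count at 24 h was 6 and 5 without E2 24 h arrays 1 and 2, 17 and 6 without E3 24 h arrays 2 and 3, 18 without E2 24 h array 3, E2 2 h array 3 or E3 2 h array 2, and 21 to 37 without any 1 of the others.

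**Figure D3:**
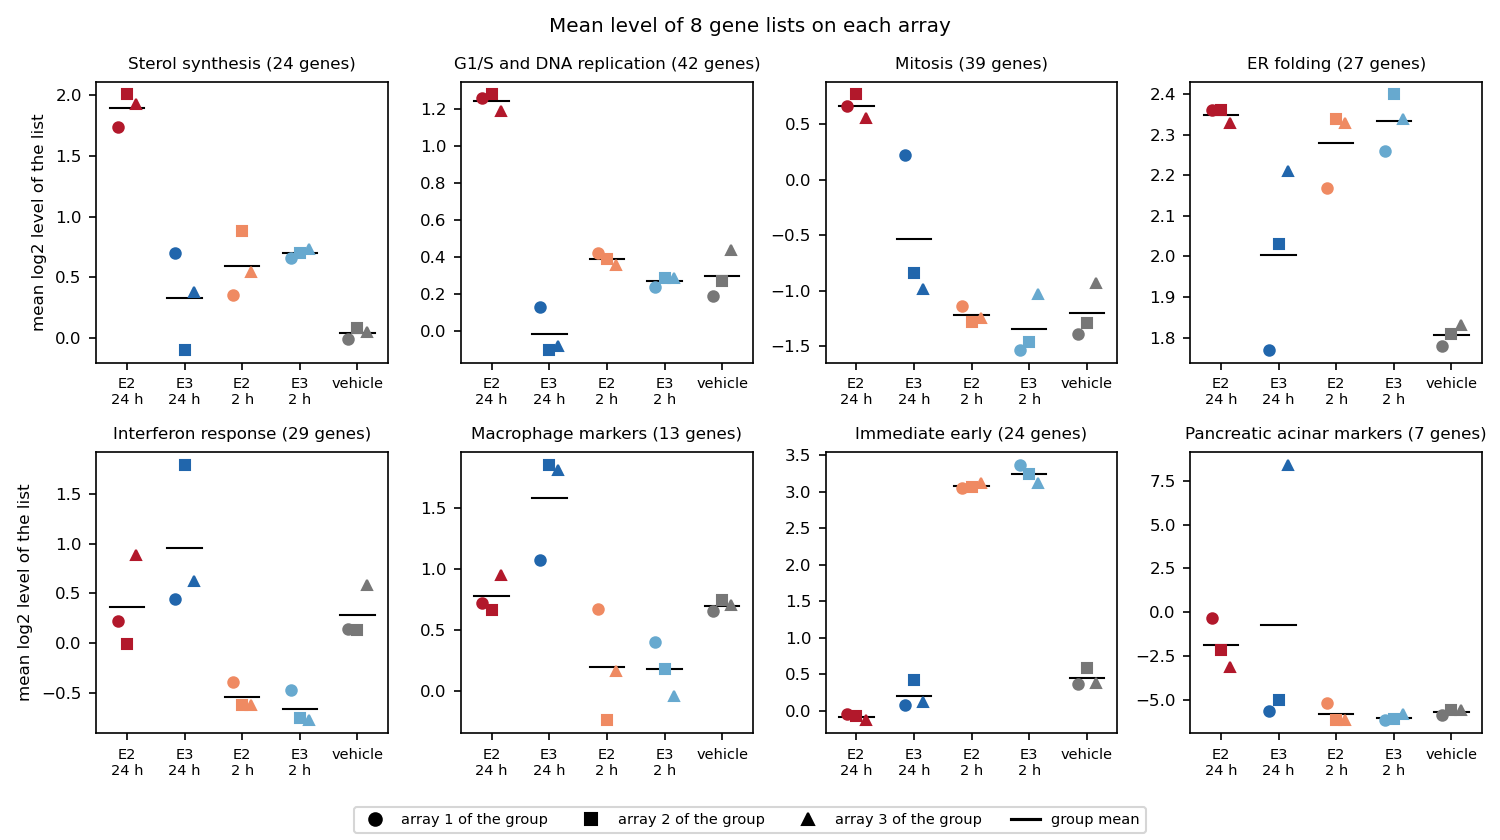
Mean log2 level of 8 gene lists on each array, by group, with array number as the symbol and a line at the group mean. The E2 24 h arrays lie above all others for sterol synthesis (1.74 to 2.01) and for DNA replication (1.19 to 1.28), and E3 24 h array 3 stands alone at 8.41 for the acinar markers.

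Chaperones of the endoplasmic reticulum, enzymes of glycolysis and genes of ribosome assembly had positive medians with fewer calls. In the endoplasmic reticulum list 5 of 27 genes had a called interaction, each positive (background 2.11%), and the median was 0.48. At 24 h 11 were called higher with E2 (background 7.33%) and 1 lower, which was Ddit3, a transcription factor of the stress response, at -0.82 (adjusted p = 0.0098; named after its value was seen). Calr, calreticulin, a calcium-binding chaperone, had levels of 4.38, 4.52 and 4.41 at E2 24 h, 2.94, 3.2 and 2.97 at E3 24 h, 3.46, 3.6 and 3.62 at E2 2 h and 3.5, 3.67 and 3.68 at E3 2 h. The 24 h groups were far apart and the 2 h groups overlapped (interaction 1.46, SE 0.16, adjusted p = 0.0055). Pdia6, a disulfide isomerase, had an interaction of 1.23, Hsp90b1, the reticulum's Hsp90, one of 0.87, and Canx, a lectin chaperone, one of 0.74 (adjusted p = 0.011, 0.017 and 0.043). Other Pdia6 probes gave 1.11 and 1.17, both called, and -0.1, not called. Other probes of Hsp90b1 and Canx had the same sign, at 0.56 and 0.7 without a call, and a further Canx probe at 0.76 was called. The count was 2 or 3 without any 1 E2 2 h array, E2 24 h arrays 1 or 2, or E3 2 h arrays 2 or 3, 8 without E3 24 h array 2, and 4 or 5 without any 1 of the others. It was 3 with a random slide block and 0 with either fixed block.

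In the glycolysis list 4 of 17 genes had a called positive interaction (background 2.11%), with a median of 0.6. They were Tpi1 at 0.9, Gapdh at 0.89, Eno1 at 1.09 and Ldha at 1.01, with adjusted p between 0.029 and 0.044, and a second Ldha probe at 1.03 was not called. Gapdh, often used as a constant reference gene, had levels of 5.37, 5.23 and 5.04 at E2 24 h, 4.41, 4.59 and 4.72 at E3 24 h, 4.22, 4.23 and 4.25 at E2 2 h and 4.28, 4.54 and 4.63 at E3 2 h. Calls in this list rested on single arrays, since 8 were made without E3 24 h array 2, 3 without E2 24 h array 3, 2 without E3 24 h array 1, 1 each without E3 2 h arrays 1 and 2, and 0 without any 1 of the other 7. Of 38 ribosome assembly genes, 37 had a positive estimate with a median of 0.57 and 0 were called with limma. An unadjusted p under 0.05 was reached by 17 of the 38, against 4301 of all 20035 genes. Without E3 24 h array 2 the list had 22 called, in a fit that called 1591 of all genes. Fbl, the nucleolar methyltransferase fibrillarin, had an estimate of 1.06 (adjusted p = 0.053) and Nop56, which works with it, one of 0.71 (adjusted p = 0.082). At 24 h 8 of the 38 were called higher with E2 (background 7.33%), against 30 without E3 24 h array 2, 3 without E3 24 h array 3 or E2 24 h arrays 1 or 2, and 5 to 10 without any 1 of the others (5 without E2 2 h array 3, E3 2 h array 2 or E3 24 h array 1).

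Other genes with large positive interactions came from several functions. Crabp1, a cellular retinoic acid binding protein, had the largest, with levels of -0.61, -0.06 and -0.87 at E2 24 h, -3.75, -3.37 and -3.22 at E3 24 h, -4.79, -3.52 and -3.71 at E2 2 h and -4.48, -3.86 and -2.84 at E3 2 h. E2 24 h arrays lay above all others and the remaining groups overlapped (interaction 3.21, SE 0.61, adjusted p = 0.027). Spock3, an extracellular proteoglycan gene, had an estimate of 2.95 (adjusted p = 0.047). Ccl7, a chemokine that attracts monocytes, had levels of -1.29, -1.46 and -1.62 at E2 24 h, -3.17, -3.26 and -2.71 at E3 24 h, -1.36, -1.48 and -0.88 at E2 2 h, -0.43, -0.76 and -0.86 at E3 2 h and -3.48 to -2.77 in vehicle uteri. Both hormones gave levels above vehicle at 2 h, and at 24 h those with E2 were still above it and those with E3 ran from inside its range to just above it (interaction 2.14, SE 0.29, adjusted p = 0.0098). Odc1, ornithine decarboxylase, which makes polyamines, was the 1 called gene of 21 measured early oestrogen-response genes (background 3.47%), at 1.06 (adjusted p = 0.045), and another probe at 0.98 was not called. Col6a2, a collagen VI chain, was the 1 called of 30 extracellular matrix genes, a share near the background, at 1.4 (adjusted p = 0.027, with another probe at 1.12 not called), and Col6a3, Col5a1 and Col6a1 had estimates of 0.95, 0.86 and 0.88 that were not called.

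**Figure D4:**
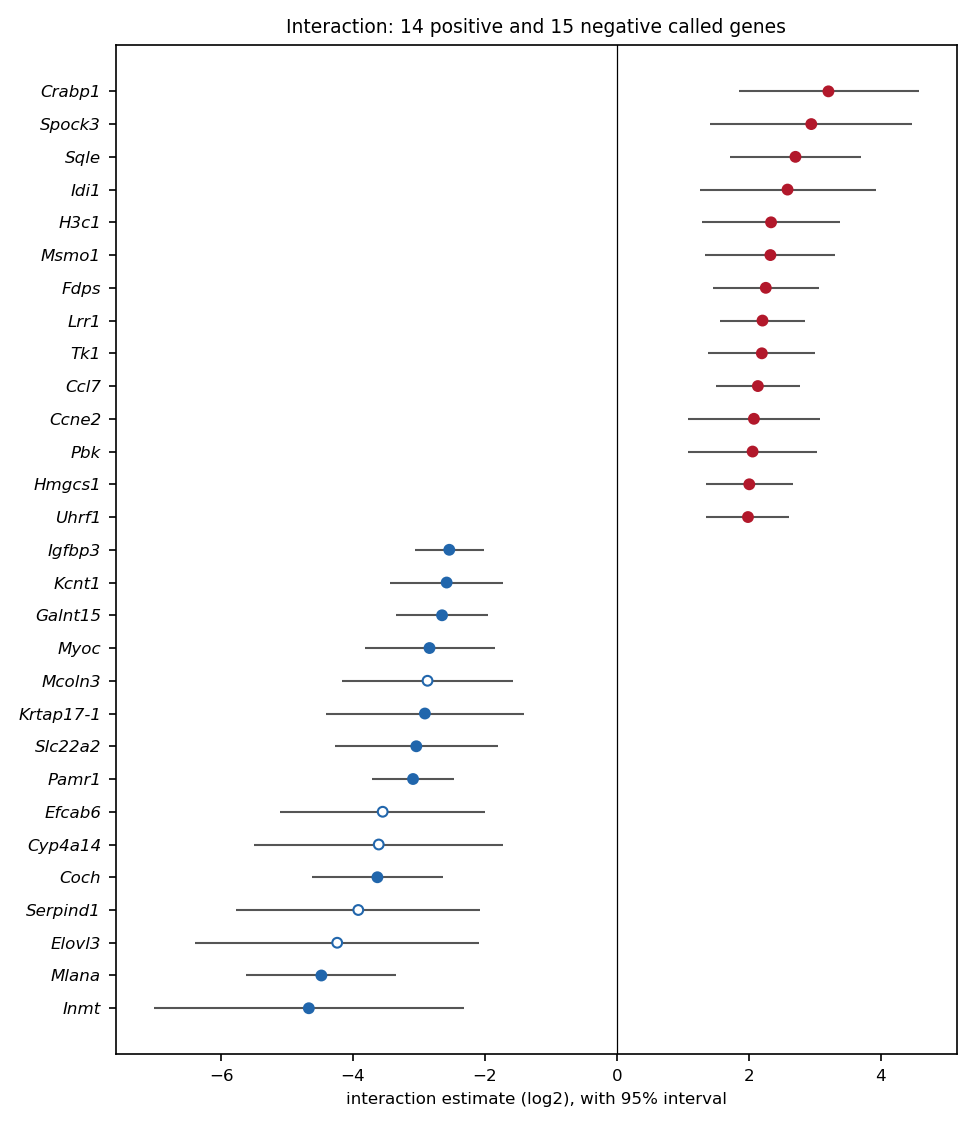
Interaction estimates (log2) with 95% intervals for 14 of the 15 largest positive (red) and the 15 largest negative (blue) called genes that carry a gene symbol. Open symbols mark genes whose probe was not well above background on any E2 24 h array. Estimates run between 1.99 and 3.21 and between -4.67 and -2.54.

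The 15 genes named for the largest negative interactions had lower levels at 24 h than at 2 h with E2, though the change of -1.51 in Cyp4a14 was not called (adjusted p = 0.057). For Cyp4a14 and the others given below as not well above background on any E2 24 h array, the size of the fall is not firm. Igfbp3, a binding protein of insulin-like growth factors, was measured with a probe at chr11:7158599-7158658 of mm7. Its levels were 0.2, 0.43 and 0.6 at E2 24 h, 2.98, 2.88 and 2.64 at E3 24 h, 3.24, 3.32 and 3.65 at E2 2 h, 3.16, 3.51 and 3.19 at E3 2 h and 3.53 to 4.1 in vehicle uteri. Igfbp3 was 5.36-fold lower with E2 at 24 h, differed by 0.12 at 2 h (95% interval -0.25 to 0.49), and had an interaction of -2.54 (SE 0.23, adjusted p = 0.0037). It fell by 2.99 between 2 h and 24 h with E2 and by 0.45 with E3 (adjusted p = 1.5e-06 and 0.045).

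Pamr1, a secreted protein with protease-like and EGF-like domains, had levels of 1.13, 0.98 and 1.01 at E2 24 h, 3.59, 4.34 and 4.19 at E3 24 h, 2.94, 2.94 and 3.08 at E2 2 h and 3.1, 3.01 and 2.57 at E3 2 h. It moved in opposite directions, falling by 1.94 with E2 and rising by 1.15 with E3 between 2 h and 24 h (adjusted p = 3.9e-05 and 0.0011), with an interaction of -3.09 (SE 0.28, adjusted p = 0.0037). Galnt15, which starts O-linked glycans, did the same, with changes of -1.55 with E2 and 1.1 with E3 and an interaction of -2.65 (SE 0.31, adjusted p = 0.0062). Its E3 24 h levels of 3.96, 4.61 and 4.15 lay above all 2 h arrays and below the vehicle levels of 4.71 to 5.13. In Coch, an extracellular matrix protein known from the inner ear, levels were -5.43, -4.98 and -5.09 at E2 24 h, -0.67, -1.87 and -1 at E3 24 h, -1.24, -0.58 and -0.53 at E2 2 h and -0.29, -0.18 and -0.81 at E3 2 h. Coch was 15.8-fold lower with E2 at 24 h and had an interaction of -3.63 (SE 0.45, adjusted p = 0.0071).

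Inmt, an amine methyltransferase, had the most negative estimate, -4.67 (SE 1.06, adjusted p = 0.044). Its levels were -2.04, -2.33 and -0.9 at E2 24 h, 2.99, 5.19 and 1.72 at E3 24 h, 3.54, 2.89 and 3.76 at E2 2 h and 4.48, 3.66 and 3.22 at E3 2 h. The E3 24 h arrays spread over more than 3 log2 units, with array 2 above all 2 h arrays and array 3 below them. Mlana, known from melanocytes, had levels of -5.12, -5.8 and -5.69 at E2 24 h, -1.89, -2.43 and -2.14 at E3 24 h, -1.1, -1.66 and -2.66 at E2 2 h and -2.91, -3.26 and -2.55 at E3 2 h (interaction -4.48, SE 0.51, adjusted p = 0.0055). The 24 h groups were apart and the 2 h groups overlapped, with E2 higher at 2 h by 1.1, a difference that was not called.

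Slc22a2, an organic cation transporter, had an interaction of -3.04, Krtap17-1, a hair keratin-associated protein, one of -2.91, Myoc, myocilin, one of -2.84, and Kcnt1, a potassium channel, one of -2.58 (adjusted p = 0.023, 0.047, 0.013 and 0.011). A second Kcnt1 probe at -1.45 was not called. The probes of Elovl3, Serpind1, Cyp4a14, Efcab6 and Mcoln3 were not well above background on any E2 24 h array, so their estimates of -4.24, -3.92, -3.61, -3.55 and -2.87 rest on signals without a firm level. Counting the E2 24 h arrays at no less than the dimmest measured signal, these genes were at least 11.9-fold, 5.42-fold, 2.19-fold, 2.17-fold and 2.26-fold lower with E2 than with E3 at 24 h. Here "at least" concerns only the unmeasured E2 signal in these samples, and the values carry no interval. Adjusted p values of these 5 interactions lay between 0.029 and 0.048.

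Of the 54 genes named here with a called interaction, 25 kept the call whichever 1 of the 12 arrays was left out. These were Sqle, Fdps, Hmgcs1, Mvk, Mvd, Mcm5, Mcm3, Gins1, Cdc45, Cdc6, E2f1, Pcna, Tk1, Uhrf1, Lrr1, Calr, Pdia6 and Ccl7 with positive values, and Igfbp3, Pamr1, Galnt15, Coch, Mlana, Myoc and Kcnt1 with negative ones. The other 29 lost the call without some arrays, in each case at least 2 and at most 11 of the 12. All 54 kept their direction whichever array was left out, which is no independent test, since they were called on the same arrays. Called genes picked by the naming rule had 29 other probes, of which 28 gave the same sign and 16 were called too.

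**Figure D5:**
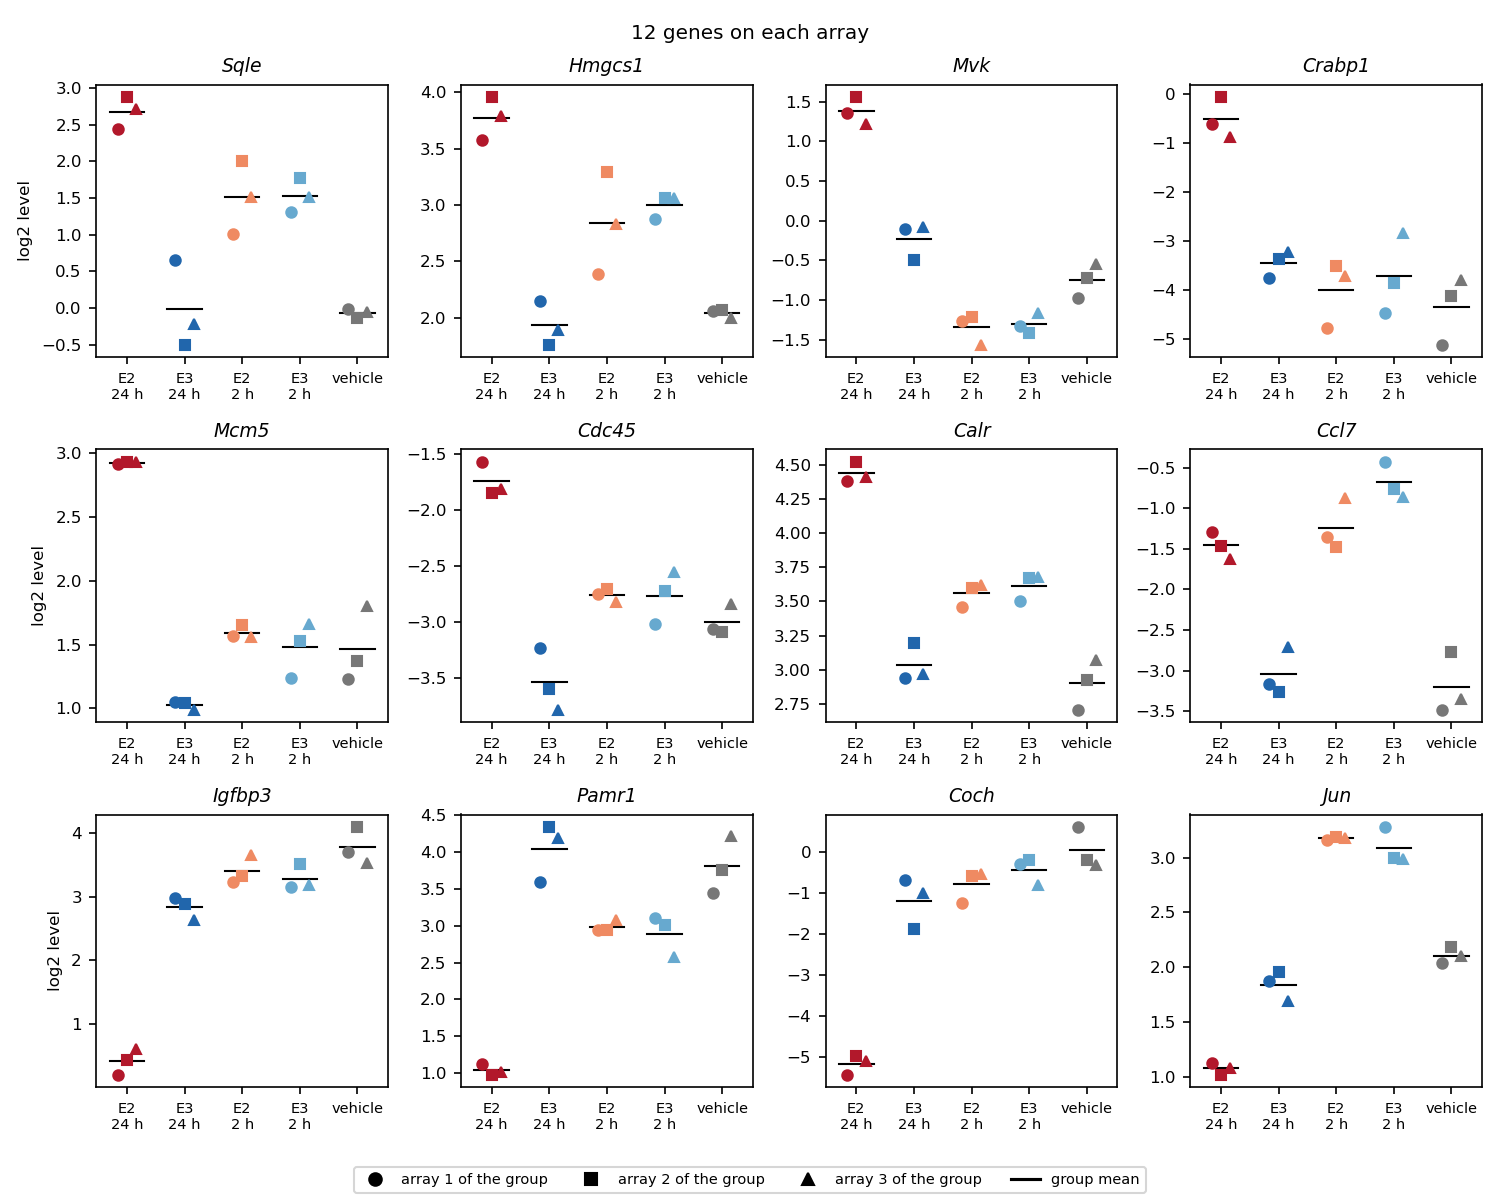
Log2 levels of 12 genes on each array, by group, with array number as the symbol and a line at the group mean. Mcm5 lies between 2.91 and 2.93 on the E2 24 h arrays, against 0.99 to 1.05 on the E3 24 h arrays, and Igfbp3 between 0.2 and 0.6, against 2.64 to 2.98.

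Interferon-response genes had negative estimates and few calls. Of 29 measured, 29 had a negative interaction estimate, with a median of -0.54, and 1 was called, a share near the 3.47% of all genes, Rsad2, an antiviral enzyme, at -1.72 (adjusted p = 0.045; other probes at -1.38 and -1.43 not called). Mean levels were 0.22, -0.01 and 0.89 at E2 24 h, 0.44, 1.8 and 0.63 at E3 24 h, -0.39 to -0.63 at E2 2 h and -0.47 to -0.78 at E3 2 h, and 0.13 to 0.59 in vehicle uteri. The 24 h groups overlapped, and E3 24 h array 2 was the highest. The median was -0.23 without that array and -0.85 and -0.75 without E3 24 h arrays 1 and 3, -0.15 with the scan day as a block and -2.09 with the slide as a fixed block. Positive estimates numbered 9 without E3 24 h array 2, 8 with the scan day as a block and on scan day 1 alone, and 2 with the array median as the scale. Rsad2 itself had levels of -1.26, -1.36 and -0.91 at E2 24 h, -0.29, 0.38 and 0 at E3 24 h, -2.19, -2.93 and -3 at E2 2 h and -2.8, -3.23 and -3.65 at E3 2 h. Ifit2, of the same response, had an estimate of -1.28 (adjusted p = 0.055).

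Some markers of immune cells were lower with E2 than with E3 at 24 h. In the bulk tissue fewer cells of a type and less RNA per cell cannot be told apart. Of 13 measured macrophage and monocyte markers 0 had a called interaction with limma, and 4 were called lower with E2 at 24 h (background 5.1%). An unadjusted interaction p under 0.05 was reached by 4 of the 13, against 4301 of all 20035 genes. Mean levels of this list were 0.72, 0.66 and 0.95 at E2 24 h, 1.07, 1.85 and 1.81 at E3 24 h, 0.67, -0.24 and 0.16 at E2 2 h and 0.4, 0.18 and -0.04 at E3 2 h, and 0.65 to 0.74 in vehicle uteri. The 24 h groups did not overlap, with the E3 arrays above vehicle on all 3. Summed signals of the list were 96.4 to 112 times the 75th percentile at E2 24 h and 153 to 369 at E3 24 h. Adgre1, the F4/80 antigen of mouse macrophages, had levels of 0.82, 1.1 and 1.13 at E2 24 h, 2.23, 2.96 and 3.35 at E3 24 h, 1.6, 0.53 and 0.82 at E2 2 h and 1.22, 1.21 and 0.68 at E3 2 h. It was 3.56-fold lower with E2 at 24 h (adjusted p = 0.0072), with an interaction of -1.78 (adjusted p = 0.062). Csf1r, the receptor that macrophages need, was 2.61-fold lower (adjusted p = 0.014) and Lyz2, lysozyme, 2.5-fold lower (adjusted p = 0.048) at 24 h, both without a called interaction. The count at 24 h was 8 without E3 24 h array 1, 1 without E2 24 h array 2 and 2 without E3 24 h arrays 2 or 3, E2 24 h array 1, E2 2 h array 3 or any 1 E3 2 h array.

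Lymphocyte markers gave 2 of 14 genes called lower with E2 at 24 h (background 5.1%), Nkg7 of cytotoxic cells and Ighm of B cells, which were 3.3-fold and 2.63-fold lower (adjusted p = 0.019 each). Their list averaged -3.5, -3.38 and -2.54 at E2 24 h and -2.6, -1.97 and -1.7 at E3 24 h. Of its members 0 had a called interaction, and 3 of 14 had an unadjusted p under 0.05, against 4301 of all 20035 genes. The 9 measured neutrophil markers were mixed, with 4 positive interaction estimates and a median of -0.37, and with 5 higher estimates with E2 at 24 h and a median of 0.29. Mmp9, a secreted protease, had the 1 called interaction of these 9 (background 3.47%), at -1.26 (adjusted p = 0.046, another probe at -1.1 not called). Csf3r, the receptor for granulocyte colony-stimulating factor, had an estimate of -2.31 (adjusted p = 0.073). The part of cell numbers in the sterol and replication results was not tested. Smooth muscle markers (12 measured, median estimate -0.01), uterine epithelial markers (15, median 0.24) and endothelial markers (12, median -0.35) had 0 called interactions with limma, and at an unadjusted p under 0.05 there were 2 among the endothelial markers and 0 in the other lists. Stromal markers (12 measured, 5 positive estimates, median -0.04) had 1 called interaction (background 3.47%), Pdgfrl at -1.31 (adjusted p = 0.031). At 24 h the median of this list was 0, with 6 of 12 positive and 3 called lower with E2 (background 5.1%), among them Dcn, decorin, at 1.92-fold lower (adjusted p = 0.0037).

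Patterning genes of the Wnt and Hedgehog pathways gave 1 called interaction among 28, a share near the 3.47% of all genes. It was Dkk2, a Wnt antagonist, at -1.1 (adjusted p = 0.022). Dkk2 had levels of 0.27, 0.42 and 0 at E2 24 h, 1.27, 1.08 and 1.1 at E3 24 h, 0.36, 0.25 and 0.01 at E2 2 h and 0.12, -0.05 and 0.03 at E3 2 h, and 1.31 to 2.03 in vehicle uteri. With E3 it stood higher at 24 h than at 2 h by 1.12 (adjusted p = 0.00017), and with E2 the change was 0.02.

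The immediate early genes were high at 2 h with both hormones. Of 24 measured, 0 differed between E2 and E3 at 2 h with limma (1 at an unadjusted p under 0.05). At 24 h 4 of the 24 were called lower with E2 (background 5.1%), among them Jun and Atf3. That count was 2 without E2 24 h arrays 1 or 2, 1 without E2 24 h array 3 or E3 24 h array 3, and 3 to 5 without any 1 of the others. The median change between 2 h and 24 h was -2.93 with E2 and -2.89 with E3. List means were -0.04, -0.07 and -0.13 at E2 24 h, 0.08, 0.42 and 0.12 at E3 24 h, 3.05, 3.06 and 3.12 at E2 2 h, 3.37, 3.24 and 3.12 at E3 2 h and 0.37 to 0.59 in vehicle uteri. Jun, a subunit of the AP-1 factor, was the 1 called interaction of the 24, a share near the 3.47% of all genes. Its estimate was -0.85 (SE 0.16, limma adjusted p = 0.027). Levels of Jun were 1.13, 1.02 and 1.08 at E2 24 h, 1.87, 1.96 and 1.69 at E3 24 h, 3.16 to 3.19 at E2 2 h, 2.99 to 3.28 at E3 2 h and 2.04 to 2.18 in vehicle uteri. At 24 h Jun was thus below the vehicle level with both hormones and lower with E2. Fos, its partner, had an estimate of -0.12 (95% interval -1.23 to 0.98, adjusted p = 0.91) and Atf3, a related stress factor, one of -0.8 (adjusted p = 0.22), with a 24 h difference of -0.91 (adjusted p = 0.037).

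Esr1, Pgr, Greb1, Igf1 and Cdkn1a, genes often followed in oestrogen studies, had no called interaction. Esr1 had levels of 2.17 to 2.28 at E2 24 h, 2.26 to 2.34 at E3 24 h, 2.67 to 2.78 at E2 2 h and 2.31 to 2.73 at E3 2 h, and an estimate of -0.27 (95% interval -0.64 to 0.1). Pgr, the progesterone receptor, had an estimate of 0.21 (interval -0.9 to 1.31) and Greb1, a receptor cofactor induced early, one of 0.04 (interval -1.54 to 1.61). For Greb1 levels were -0.57, -0.09 and -0.16 at E2 24 h, -0.93, 1.04 and -1.34 at E3 24 h, 2.87 to 3.29 at E2 2 h and 2.49 to 3.18 at E3 2 h, with E3 24 h array 2 above the other arrays of 24 h. Igf1, the growth factor of the uterine stroma, had an estimate of 0.98 (interval 0.43 to 1.54, adjusted p = 0.059) and was 1.56-fold higher with E2 at 24 h (adjusted p = 0.04). Cdkn1a, an inhibitor of cyclin-dependent kinases, had an estimate of -0.69 (interval -1.86 to 0.47).

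Secreted products of the epithelium had 0 called interactions among 26 measured genes with limma (1 at an unadjusted p under 0.05), with a median of 0.29, and wide intervals. Ltf, lactoferrin, had levels of 3.51, 4.22 and 5.65 at E2 24 h, 4.02, 7.34 and 3.31 at E3 24 h, 2.13 to 3.08 at E2 2 h and 1.17 to 2.49 at E3 2 h, and an estimate of -1.07 (interval -3.98 to 1.84). C3, a complement protein, gave -0.09 (interval -1.63 to 1.45), Lcn2, a lipocalin, 1.34 (interval -1.66 to 4.34), and Muc1, a surface mucin, 0.5 (interval -0.63 to 1.63). In Ltf, C3, Lcn2 and Greb1, E3 24 h array 2 was the highest array of 24 h. Mean levels of the list were 2.39, 2.27 and 2.72 at E2 24 h and 1.69, 3.76 and 2.08 at E3 24 h, and without E3 24 h array 2 the median was 0.75, with 3 genes called higher at the interaction and 9 at 24 h. Slpi, a protease inhibitor, was called lower with E2 at 24 h by 2.45-fold (adjusted p = 0.022), with an interaction of -1.79 (adjusted p = 0.051) and another probe at 0.63.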

How the data were processed

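Whole-uterus RNA (500 ng per sample, labelled with Cy3) was measured on 15 one-colour Agilent arrays, of which 12 enter the comparisons. The authors deposited scanner output of Agilent Feature Extraction (version 9.5, per the submitters' processing notes), and its processed signal is an intensity after spatial and multiplicative detrending within the array, per the file headers, with no normalization between arrays. The deposited value table holds the same intensity values.

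From there, control spots and flagged spots were dropped, spots of a probe averaged, log2 taken and each array's 75th percentile subtracted. Where a gene had several probes, the brightest on average over the 12 arrays was used. The 20035 genes tested had a signal well above background in every array of 1 or more of the 4 groups. Of 41121 probes, 22923 were named through their RefSeq accession, 124 through another accession, 6572 by symbol, 3071 by synonym and 8431 by the name in the file. limma 3.58.1 in R 4.3.3 was fitted with 1 mean per group, and p-values were adjusted by the Benjamini-Hochberg method over all genes tested, with 0.05 as the threshold. The fit had 8 residual and 2.26 prior degrees of freedom. It was tested on simulated data with independent noise, the same spread in all groups and no slide or array effects. That test therefore does not cover unequal spreads, slides or single deviating arrays. Promoter sequences were matched by symbol.

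The genes, the gene lists and the rule for naming were chosen with earlier results of these data known. Named are the 15 largest called estimates in each direction with a RefSeq symbol, up to 4 members per list with the smallest p, 12 fixed oestrogen, epithelial and cell cycle genes, and Cdc6, E2f1, Pcna, Prim2 and Ddit3, chosen after their values were seen. Some genes that this rule names are not reported here. Alternatives covered scaling, background, filters, thresholds, variance models, weights, blocks, scan day 1 alone (added after seeing the data) and each array left out.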

Additional observations from a re-analysis of the deposited data

Results flagged for a closer look

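By the test of the interaction itself, the E2 minus E3 difference in these samples changed between 2 h and 24 h in 423 genes with a positive and 273 with a negative estimate. These are flagged for that reason. The calls depended on the fit, with 165 to 1591 when 1 array was left out. There were 4 with the scan day and 0 with the slide as a fixed block, in which Cyp4a14, Pdgfrl and Mmp9 changed sign. Slide and group could not be fully told apart. The named ones follow with their estimates on the log2 scale, where a positive value means that E2 stood higher relative to E3 at 24 h than at 2 h.

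In sterol synthesis these were Sqle at 2.71, Idi1 at 2.59, Msmo1 at 2.33, Fdps at 2.26, Hmgcs1 at 2.01, Mvk at 1.65 and Mvd at 1.5. In DNA replication and the cell cycle they were H3c1 at 2.34, Lrr1 at 2.21, Tk1 at 2.2, Ccne2 at 2.08, Pbk at 2.06, Uhrf1 at 1.99, Cdc6 at 1.95, Mcm5 and Cdc45 at 1.78, E2f1 at 1.59, Gins1 at 1.5, Bub1 at 1.46, Mcm3 at 1.43 and Pcna at 1. Among chaperones Calr had 1.46, Pdia6 1.23, Hsp90b1 0.87 and Canx 0.74. Among glycolytic enzymes Eno1 had 1.09, Ldha 1.01, Tpi1 0.9 and Gapdh 0.89. The remaining positive values were 3.21 for Crabp1, 2.95 for Spock3, 2.14 for Ccl7, 1.4 for Col6a2 and 1.06 for Odc1.

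Negative values were -4.67 for Inmt, -4.48 for Mlana, -3.63 for Coch, -3.09 for Pamr1, -3.04 for Slc22a2 and -2.91 for Krtap17-1. Smaller ones were -2.84 for Myoc, -2.65 for Galnt15, -2.58 for Kcnt1, -2.54 for Igfbp3, -1.72 for Rsad2, -1.31 for Pdgfrl, -1.26 for Mmp9, -1.1 for Dkk2 and -0.85 for Jun. The fitted values of Elovl3 (-4.24), Serpind1 (-3.92), Cyp4a14 (-3.61), Efcab6 (-3.55) and Mcoln3 (-2.87) have no firm size or order, since their probes were not well above background on any E2 24 h array. With those arrays counted at no less than the dimmest measured signal, these genes were at least 11.9-fold, 5.42-fold, 2.19-fold, 2.17-fold and 2.26-fold lower with E2 than with E3 at 24 h. These values describe the samples at hand and carry no interval.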

How the results depend on the processing

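The 696 called interactions became 176 with no filter on dim probes, 55 at an adjusted p under 0.01, 424 with a 2-fold minimum, 1300 with all 15 arrays in the fit, 1048 with trended and robust variances, 2621 with array weights, 312 with the slide as a random block, 0 with the slide and 4 with the scan day as a fixed block, and 16 on scan day 1 alone. The 2490 calls at 24 h became 1552 with no filter, 763 at an adjusted p under 0.01, 819 with a 2-fold minimum, 1392 with array weights per group, 0 with the slide and 1445 with the scan day as a fixed block. At 2 h scan day 1 alone gave 2. Without 1 array the interaction gave 165 (without E2 2 h array 1) to 1591 (without E3 24 h array 2), the 24 h difference 1152 to 3436, and the 2 h difference 0 to 1. With the replicate number as a block the counts were 217 and 1900, and 31 of the 54 named calls remained. The labels tie no number to an animal or day, and deviations of same-numbered arrays correlated between -0.216 and 0.143, with 5 of 18 pairs above 0.1, so the numbers were not taken as pairs. All 3 pairs of E2 24 h and E2 2 h were above it (0.103, 0.107 and 0.13). Quantile normalization, the array median, normexp, a filter on all 12 arrays, mean probes, single probes and group weights gave 526 to 977 interactions.

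Signs turned with the fixed slide block for Cyp4a14 (0.05), Pdgfrl (0.21), Mmp9 (0.07), Pgr (-1.04), Greb1 (-1.38), Cdkn1a (0.2), Lcn2 (-3.65), Muc1 (-2.32) and Prim2 (2.07). They turned for Ltf (1.27), C3 (0.59) and Fos (0.09) with the scan day as a block and on scan day 1 alone, for C3 (0.04) and Fos (0.01) with the array median, for Fos (0.04) with array weights, and for Greb1 (0) with quantile normalization. The causes were not tested. Without 1 array Greb1 ran between -0.43 and 0.76, C3 between -0.51 and 0.53, Fos between -0.46 and 0.3, Ltf between -1.86 and 0.16, Pgr between -0.12 and 0.7, and Prim2 between -2.09 and 0.39.

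With 3 arrays a group, intervals of the interaction lay within 2-fold for 48.7% of genes. The median standard error was 0.48 with the fixed slide block, against 0.21 without it, and 4 degrees of freedom remained. Slide and group could not be fully told apart, since 2 of the E3 24 h arrays fill a slide of their own.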

Other observations

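The steroid receptor and coregulator list had a median interaction estimate of -0.1 over 15 measured genes. Fkbp5, a co-chaperone of steroid receptors, was called higher with E2 at 24 h by 1.12 (adjusted p = 0.0043, limma), and its interaction of 0.89 was not called (adjusted p = 0.078). Another Fkbp5 probe had a called interaction of 0.86 (limma adjusted p = 0.02). A further one had the opposite sign, at -0.12 (adjusted p = 0.82), with a 24 h difference of 0.37.

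The pancreatic acinar and adipocyte lists varied between single arrays. The 7 pancreatic acinar genes averaged -0.3, -2.16 and -3.14 at E2 24 h, and -5.63, -4.97 and 8.41 at E3 24 h. Their median interaction estimate was 3.39 without E3 24 h array 3, with 1 gene called, and -1.34 with it. Adipocyte markers had means of 0.13, -2.24 and 0.83 at E2 24 h, 0.83, -0.37 and -0.04 at E3 24 h, 1.46, -0.29 and 1.07 at E2 2 h and 1.02, 1.4 and -0.96 at E3 2 h, and a median estimate of -0.83 over 13 genes. Median estimates were -1.31 over 12 eosinophil and mast cell markers, 1.24 over 7 skeletal muscle, -0.68 over 5 ovarian, -0.3 over 8 oviduct, 0.06 over 8 urothelial and 0.04 over 4 erythrocyte markers, and 0.27 over 11 genes of RNA stress, where all genes tested had -0.02. In the first of these lists the median E2 minus E3 difference was 0.74 at 2 h and -0.48 at 24 h. For skeletal muscle it was -0.48 at 2 h and 0.08 at 24 h, so in both lists the 2 h term was the larger in size.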
